A study of Homo sapiens with 15 samples.

Results

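The integrated stress response and the unfolded protein response are represented here by 32 genes, found by symbol among the 26485 gene symbols of the count table of a leukemia cell line study. All 32 were present once and all passed the low-count filter, which left 17243 genes for testing. The members fall into an ATF4/CHOP arm of 14 genes, an endoplasmic reticulum (ER) arm of 13 genes (9 for folding and 4 for ER-associated degradation) and 5 sensors and regulators. U937, a human myeloid line with monocytic features, and ML1, a human acute myeloid leukemia line, were cultured for 24 h. The 5 groups were U937 with 10 nM prexasertib plus 350 nM LSN622666 (called the combination below), U937 with 10 nM prexasertib, U937 with diluent, ML1 with 10 nM prexasertib and ML1 with diluent, each with 3 libraries. Prexasertib inhibits the checkpoint kinase CHK1, and LSN622666 is a compound known here by its code name. Every culture, diluent included, also received 5 µM Q-VD-OPh, a pan-caspase inhibitor, so the members were read in cells whose caspases were blocked. No group received LSN622666 alone, ML1 had no combination group, and each line is a single cell line.

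In the integrated stress response, kinases such as PERK (EIF2AK3), GCN2 (EIF2AK4), PKR (EIF2AK2) and HRI (EIF2AK1) phosphorylate the translation factor eIF2α, which slows general translation while the transcription factor ATF4 is translated. ATF4 and its partner CHOP (DDIT3) act on genes for amino acid synthesis and stress signalling, and the phosphatase subunits PPP1R15A and PPP1R15B reverse the phosphorylation. The ER arm belongs to the unfolded protein response: IRE1 (ERN1) splices the XBP1 mRNA, and spliced XBP1 and cleaved ATF6 act on ER stress elements in the promoters of chaperone and degradation genes. Splicing, cleavage and phosphorylation are not measured by gene counts, so all values below are mRNA levels.

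The start-site sequences of 6 members are shown because they carry exact matches to elements linked to the arms. They are the 250 bases before and 50 bases after the annotated start from RefSeq (GRCh38.p14), written in the direction of the gene. Capitals mark matches to the ER stress element ERSE (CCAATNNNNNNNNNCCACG), to ERSE-II (ATTGG, 1 base of any kind, then CCACG) or to the core of the ATF4-CEBP response element, CARE (TGATGNAA), on either strand. CRELD2, a secreted ER protein (chr22:49918384-49918683, plus strand), and XBP1 (chr22:28800520-28800819, minus strand) each hold an ERSE, and the chaperone gene HYOU1 (chr11:119057156-119057455, minus strand) holds 2 matches to ERSE-II. HERPUD1, a membrane protein of ER-associated degradation (chr16:56931892-56932191, plus strand), holds both an ERSE-II and a CARE core. Asparagine synthetase, ASNS (chr7:97872359-97872658, minus strand), and the glutathione-degrading enzyme CHAC1 (chr15:40953221-40953520, plus strand) hold a CARE core.
CRELD2: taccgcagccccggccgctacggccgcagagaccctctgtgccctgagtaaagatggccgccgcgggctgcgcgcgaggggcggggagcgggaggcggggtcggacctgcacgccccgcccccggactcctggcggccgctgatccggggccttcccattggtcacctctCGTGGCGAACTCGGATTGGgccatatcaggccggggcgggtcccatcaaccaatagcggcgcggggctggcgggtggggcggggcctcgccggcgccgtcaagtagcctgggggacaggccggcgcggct
XBP1: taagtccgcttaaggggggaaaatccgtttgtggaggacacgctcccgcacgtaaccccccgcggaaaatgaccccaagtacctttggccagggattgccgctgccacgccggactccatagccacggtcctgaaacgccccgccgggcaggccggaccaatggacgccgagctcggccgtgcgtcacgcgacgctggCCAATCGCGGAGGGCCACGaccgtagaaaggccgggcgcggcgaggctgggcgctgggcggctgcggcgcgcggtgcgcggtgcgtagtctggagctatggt
HYOU1: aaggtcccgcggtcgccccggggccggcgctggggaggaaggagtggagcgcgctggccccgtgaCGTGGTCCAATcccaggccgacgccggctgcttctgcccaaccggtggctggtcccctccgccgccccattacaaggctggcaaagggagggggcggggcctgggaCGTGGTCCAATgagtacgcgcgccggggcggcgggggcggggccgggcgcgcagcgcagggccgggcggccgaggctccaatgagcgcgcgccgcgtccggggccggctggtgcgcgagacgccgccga
HERPUD1: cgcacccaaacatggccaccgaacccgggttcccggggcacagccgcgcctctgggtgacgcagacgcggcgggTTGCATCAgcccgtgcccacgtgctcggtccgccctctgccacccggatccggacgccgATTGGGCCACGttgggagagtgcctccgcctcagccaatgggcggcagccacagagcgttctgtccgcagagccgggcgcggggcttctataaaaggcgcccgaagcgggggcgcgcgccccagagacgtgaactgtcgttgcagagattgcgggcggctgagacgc
ASNS: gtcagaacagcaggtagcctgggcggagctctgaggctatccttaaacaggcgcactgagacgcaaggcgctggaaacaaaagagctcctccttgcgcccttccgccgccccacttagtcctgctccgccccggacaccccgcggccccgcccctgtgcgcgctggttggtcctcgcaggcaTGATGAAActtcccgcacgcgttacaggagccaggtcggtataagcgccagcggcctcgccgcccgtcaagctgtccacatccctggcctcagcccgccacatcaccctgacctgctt
CHAC1: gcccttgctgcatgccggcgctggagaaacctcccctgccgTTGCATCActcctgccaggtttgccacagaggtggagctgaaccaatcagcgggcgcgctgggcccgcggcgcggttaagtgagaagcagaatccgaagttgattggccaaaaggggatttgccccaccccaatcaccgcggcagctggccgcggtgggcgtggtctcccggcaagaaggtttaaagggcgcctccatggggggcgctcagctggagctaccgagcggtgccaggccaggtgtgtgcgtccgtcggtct

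Promoters were found for 28 of the 32 members (11 of the ATF4/CHOP arm, 12 of the ER arm and 5 sensors and regulators); ALDH1L2, PDIA3, PSPH and SHMT2 had no entry. ERSE matched CALR, CANX, CRELD2 and XBP1, against 0.0769% of all 35116 promoters, and ERSE-II matched SDF2L1, HYOU1 and HERPUD1, against 0.0541%. No ATF4/CHOP arm promoter held an exact match to either. Near matches were not counted, and the DDIT3 promoter holds ccaatgccggcgtgccact, which differs from ERSE only in its last base. The CARE core matched CHAC1, ASNS, HERPUD1 and PPP1R15B, against 3.62% of promoters. The cyclic AMP element CRE (TGACGTCA) matched PPP1R15A, against 1.85%, and the core of the unfolded protein response element, UPRE (TGACGTGG), matched HYOU1, against 0.729%, where it overlapped the more distant ERSE-II match and is not in capitals. A shorter motif, the CCAAT box (CCAAT), which is part of ERSE and, reversed, of ERSE-II, matched 21 members and 34.6% of all promoters. These are letter matches in a short window, not measured binding.

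**Figure D1:**
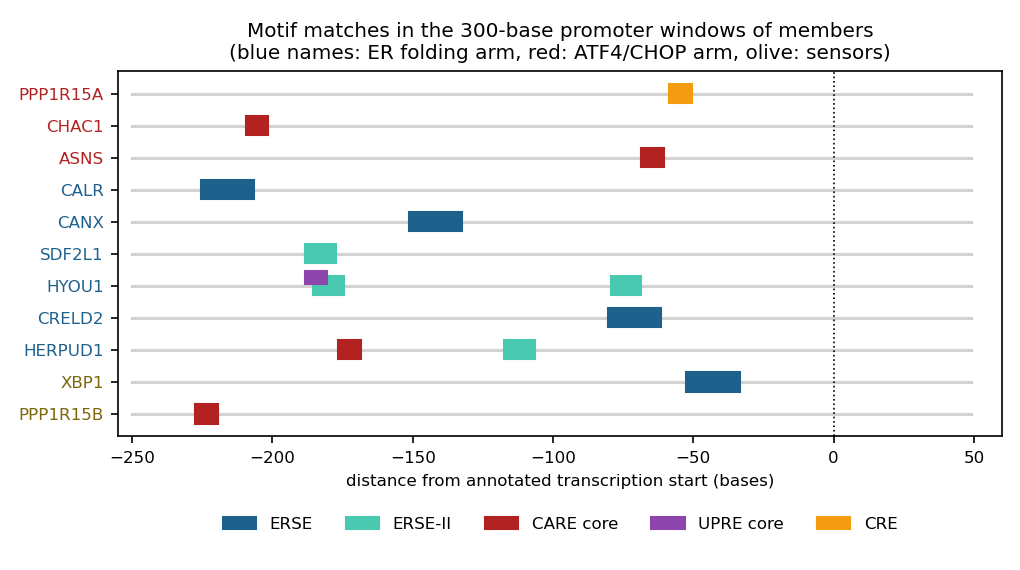
Positions of motif matches in the 300-base windows of the 11 members with a match, as distance in bases from the annotated start (dotted line). Blue bars are ERSE, green ERSE-II, red the CARE core, purple the UPRE core and orange CRE; the ERSE and ERSE-II bars lie in ER arm genes and XBP1.

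Library totals ran from 49011222 to 87301014 counts, and replicates of a group correlated at 0.988 to 0.998 across genes on log2 CPM. Levels are CPM, counts scaled to a common library size with edgeR's TMM factors, given in replicate order. Changes are log2 fold changes ± standard error, with p adjusted over all 17243 genes. Both lines are labelled as myeloid leukemia, and all 10 myeloid marker genes were at 1 CPM or more in every library. Their summed level was 1197 to 1328 CPM in the U937 combination libraries, 1031 to 1191 with prexasertib and 1166 to 1388 with diluent, and it was 5296 to 6977 CPM in ML1 with prexasertib against 2237 to 2516 with diluent. Of 10 markers of other cell types, 2 exceeded 1 CPM, CD3E and EPCAM had no count, and their sum was 218 to 298 CPM in ML1 with prexasertib against 46.7 to 58.1 with diluent. So a higher marker level went with prexasertib in ML1, where most members changed, and its part in the ML1 results below was not tested. Less RNA per cell and fewer cells of a kind cannot be told apart in these bulk samples.

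Before treatment the levels of the 2 arms overlapped. Per kilobase of exon, with diluent, the lectin chaperone CALR led all members at 801 ± 144 CPM per kb in U937 and 409 ± 59.3 in ML1 (mean ± SD, n = 3). The other lectin chaperone, CANX, and the disulfide isomerases PDIA3, PDIA4 and PDIA6 lay between 94.1 and 139.9 CPM per kb in U937 and between 45.1 and 109.8 in ML1. Their order in U937 on this scale was PDIA3 (139.9 ± 16.4), CANX (132 ± 8.16), PDIA6 (99.4 ± 2.58) and PDIA4 (94.1 ± 11.6); PDIA3 and CANX, and PDIA6 and PDIA4, differed by less than the larger of their SDs. Of the ATF4/CHOP arm, SHMT2 at 80.1 ± 6.37 in U937 and 119 ± 6.13 in ML1 and PSAT1 at 92.5 ± 13.8 in U937 were of similar size, while CRELD2, HERPUD1 and SYVN1 of the ER arm were at 4.51 ± 0.635, 5.299 ± 0.414 and 6.54 ± 0.718 in U937. CHOP (DDIT3) and CHAC1 were at 7.71 ± 0.728 and 2.09 ± 0.280 in U937 and 17.8 ± 2.24 and 1.23 ± 0.534 in ML1. The lowest was STC2, which encodes the secreted glycoprotein stanniocalcin, at 0.0448 ± 0.0139 in U937 and no count in ML1.

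Between the untreated lines 25 of the 32 members differed, 12 higher and 13 lower in U937 than in ML1, where 61.4% of all genes tested were called, 32% higher and 29.4% lower. The libraries lay fully above ML1 for 12 members, against 35.4% of all genes tested, and fully below for 12, against 33.9%. The lines stood far apart in PSAT1 and ALDH1L2. PSAT1, which makes phosphoserine (chr9:78297143-78330093, plus strand), had 228, 169 and 210.4 CPM in U937 against 0.577, 0.356 and 0.302 in ML1 with diluent. ALDH1L2, which oxidises formyl-tetrahydrofolate in mitochondria (chr12:105019784-105084577, minus strand), went the other way, with 0.586, 0.342 and 0.962 CPM in U937 against 92.8, 82.9 and 114 in ML1. Neither set overlapped, and the log2 fold changes, U937 over ML1, were 8.95 ± 0.34 (adjusted p = 2e-13) and -7.28 ± 0.32 (adjusted p = 1.8e-12). Of the other enzymes, SHMT2 and ASNS were called lower in U937. Their means were 388 CPM in U937 against 574 in ML1 for SHMT2 and 41.5 against 112 for ASNS. PHGDH, PSPH and MTHFD2 were not called. Their means were 368 CPM in U937 against 348 in ML1 for PHGDH, 38.3 against 43.3 for PSPH and 158 against 169 for MTHFD2. PSAT1 in ML1 and ALDH1L2 in U937 were below 1 CPM in every diluent library, so changes of either within that line rest on very low levels.

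The folding and degradation members of the ER arm split in the same comparison. Of the 9 folding genes of the ER arm, 6 were higher in U937 (CALR, PDIA3, PDIA4, PDIA6, HYOU1 and MANF, log2 fold changes 0.62 to 1.30) and none lower. All 4 degradation genes were lower in U937, at -0.77 for HERPUD1, -0.43 for EDEM1, -0.41 for SYVN1 and -0.33 for SEL1L. The further genes of these roles, described below, did not split in this way. Of 22 other folding genes, 8 were higher and 4 lower in U937. Of 12 other degradation genes, 4 were higher and 5 lower. Among all genes tested, 32% were called higher and 29.4% lower. Among the sensors, XBP1 (1.01 ± 0.13, adjusted p = 4e-06) and EIF2AK4 (1.00 ± 0.13, adjusted p = 3.8e-06) were higher in U937, and ERN1 (-0.60), EIF2AK3 (-0.84) and PPP1R15B (-0.61) were lower. The call of CHAC1 (0.77, adjusted p = 0.012) ended without ML1 diluent replicate 2 (0.075) or 3 (0.062) and its change was 1.18, adjusted p = 0.00021 without ML1 diluent replicate 1, while KLHL24 (-0.59, adjusted p = 0.033) lost its call without replicate 2 or 3 of either diluent group (adjusted p up to 0.17). SEL1L lost it without ML1 diluent replicate 1 (0.095) or U937 diluent replicate 3 (0.068), and ERN1 without any U937 diluent library, ML1 diluent replicate 1 or 2, ML1 prexasertib replicate 3 or combination replicate 3 (adjusted p up to 0.19).

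**Figure D2:**
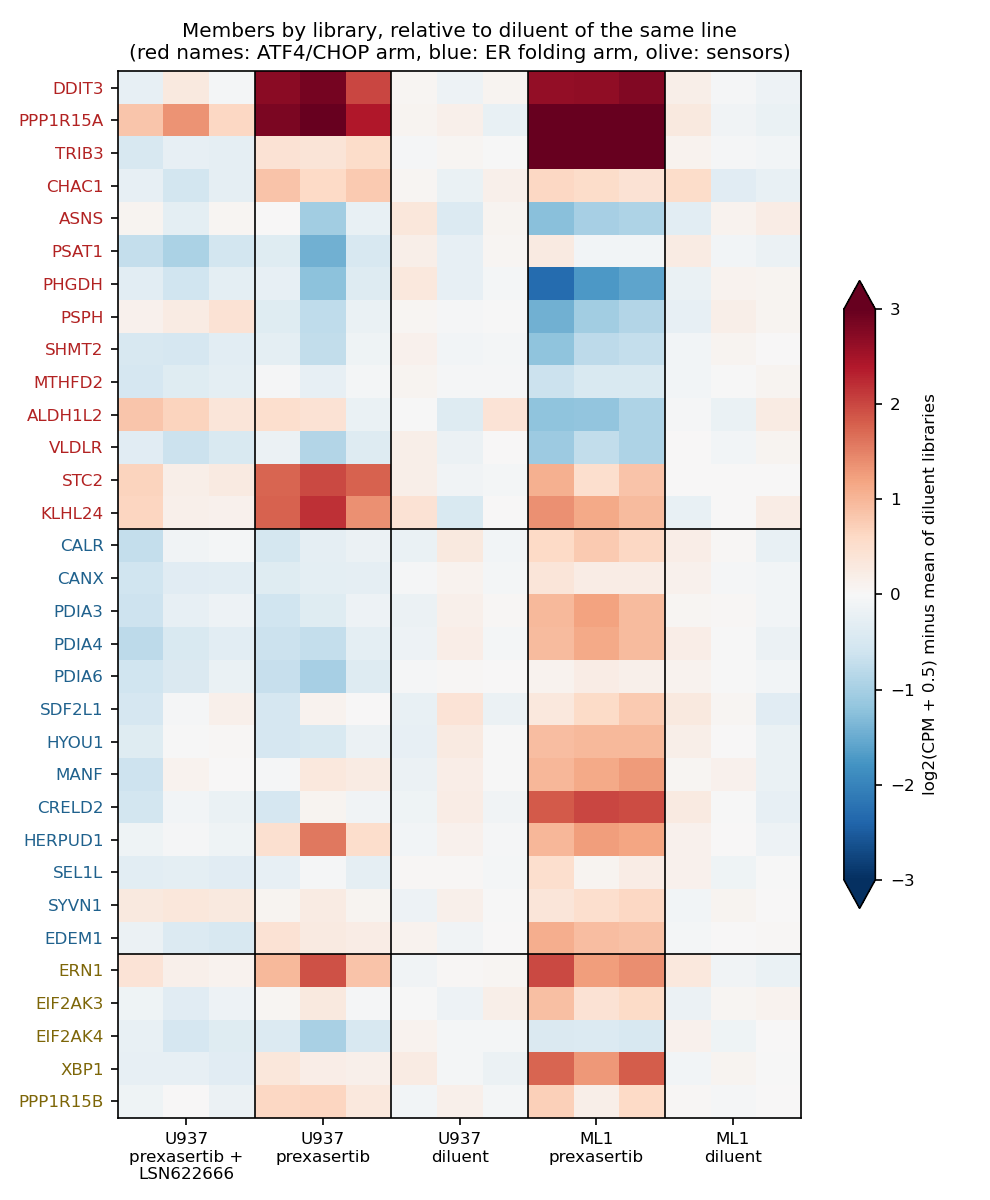
Each cell is the log2(CPM + 0.5) of 1 member in 1 library minus the mean of the diluent libraries of the same line; columns are the 3 libraries of each group and rows the 32 members, with the colour scale ending at 3 either way. Most of the ER arm is red across the 3 ML1 prexasertib columns and blue or pale in the U937 columns, and DDIT3 and PPP1R15A are red under prexasertib in both lines.

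The first question was what prexasertib did to the ATF4/CHOP arm in each line. In U937, 6 of its 14 members rose and 2 fell, where 31.1% of all genes tested were called, 18.3% higher and 12.8% lower. With the replicate number as a block 6 fell, where 3682 of all 17243 genes tested were called lower. In ML1, 5 rose and 7 fell, where 48.8% were called, 25.3% higher and 23.5% lower. The median log2 fold change of the arm was 0.17 in U937 and -0.21 in ML1, beside medians of -0.00 and 0.02 over all genes tested. The ML1 median of the arm was the same with STC2 set against a floor of 3 counts in diluent. The members that rose in U937 were DDIT3, PPP1R15A, TRIB3, STC2, KLHL24 and CHAC1, and all of these but CHAC1 also rose in ML1. The 7 that fell in ML1 were PHGDH, PSPH, ASNS, SHMT2, MTHFD2, ALDH1L2 and VLDLR.

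CHOP, the transcription factor gene DDIT3 (chr12:57516588-57521737, minus strand), had 68.4, 76.4 and 41.7 CPM in U937 with prexasertib against 10.5, 8.98 and 10.7 with diluent. In ML1 it had 147, 149 and 161 CPM with prexasertib against 26.4, 22.7 and 20.6 with diluent. Every treated library stood above every diluent library of its line, and replicate 3 was the lowest of the U937 prexasertib libraries. The rise was nearly equal in size, 2.63 ± 0.19 in U937 (adjusted p = 3.2e-07) and 2.71 ± 0.19 in ML1 (adjusted p = 3.9e-09). The difference between the lines was -0.09 ± 0.26 (95% interval -0.63 to 0.46, adjusted p = 0.86). Of the DDIT3 exon length, 31.6% overlaps MARS and MBD6 on the other strand, and the library kit does not mark strand. MARS, at 178 CPM in U937 with prexasertib against 206 with diluent and 294 against 412 in ML1, changed by -0.22 and -0.49, and MBD6 by 0.44 and 0.45, both far less than DDIT3.

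PPP1R15A (chr19:48872392-48876057, plus strand), also called GADD34, the stress-induced eIF2α phosphatase subunit, had the largest log2 fold change of the members in U937 and, apart from STC2, in ML1. It stood at 362, 617 and 270.1 CPM in U937 with prexasertib, against 53.6, 55.9 and 43.1 with diluent, and at 1309.7, 1196 and 1395 CPM in ML1 with prexasertib, against 55.7, 42.1 and 39.6 with diluent. The groups did not overlap in either line, and U937 prexasertib replicate 2 was the highest of its group. PPP1R15A rose by 3.03 ± 0.26 in U937 (adjusted p = 1.1e-06) and by 4.83 ± 0.28 in ML1 (adjusted p = 3.5e-10). Its partner PPP1R15B (chr1:204403387-204411791, minus strand), the constitutive subunit, moved much less. PPP1R15B had 164, 166 and 131 CPM with prexasertib against 99.9, 117 and 102 with diluent in U937 and 267, 182 and 245 with prexasertib against 166, 157 and 163 with diluent in ML1. The libraries separated fully in both lines, with log2 fold changes of 0.53 ± 0.13 (adjusted p = 0.0074) and 0.51 ± 0.13 (adjusted p = 0.0041).

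TRIB3 (chr20:362835-397559, plus strand), a pseudokinase that is a target of CHOP and binds AKT, behaved differently in the lines. In U937 it had 230.5, 221 and 248 CPM with prexasertib against 165, 176 and 167 with diluent, and in ML1 681, 499 and 685 with prexasertib against 59.2, 54.4 and 52.7 with diluent. Both sets separated, but the ML1 diluent level was the lowest of all groups and the ML1 prexasertib level the highest. TRIB3 rose by 0.46 ± 0.12 in U937 (adjusted p = 0.01, 0.052 without diluent replicate 3) and by 3.49 ± 0.14 in ML1 (adjusted p = 3.9e-12).

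STC2 (chr5:173314713-173329503, minus strand) was barely expressed: it had 2.07, 2.56 and 2.12 CPM in U937 with prexasertib against 0.372, 0.216 and 0.235 with diluent. In ML1 it had 0.547, 0.213 and 0.405 CPM with prexasertib and no count in any diluent library. All treated libraries were higher in both lines. STC2 rose by 3.01 ± 0.42 in U937 (adjusted p = 0.00014). In ML1 the 66 counts with prexasertib were 25.9-fold a floor of 3 counts over the 3 diluent libraries, scaled for library size. The 95% Poisson lower limit of the ratio of prexasertib to diluent was 20.5. KLHL24 (chr3:183635568-183684477, plus strand), a substrate adaptor of a ubiquitin ligase, had 72.9, 97.98 and 55.4 CPM in U937 with prexasertib against 28.8, 15.1 and 21.3 with diluent, and 85.2, 71.4 and 63.3 with prexasertib against 27.5, 32.4 and 38.1 with diluent in ML1. It rose in both lines, by 1.79 ± 0.23 (adjusted p = 4.1e-05) and 1.17 ± 0.23 (adjusted p = 0.00037), without overlap. CHAC1, whose promoter is shown above, had 8.12, 6.77 and 7.78 CPM in U937 with prexasertib against 4.46, 3.65 and 4.77 with diluent. It rose there by 0.82 ± 0.24 (adjusted p = 0.018), but not without diluent replicate 2 (0.084) or prexasertib replicate 1 (0.056). In ML1 CHAC1 had 3.97, 3.78 and 3.44 CPM with prexasertib against 3.79, 1.78 and 2.01 with diluent, where diluent replicate 1 lay within the treated range (0.57 ± 0.25, adjusted p = 0.066; 0.98, adjusted p = 0.0017 without that library and 0.63, adjusted p = 0.01 with the replicate number as a block).

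**Figure D3:**
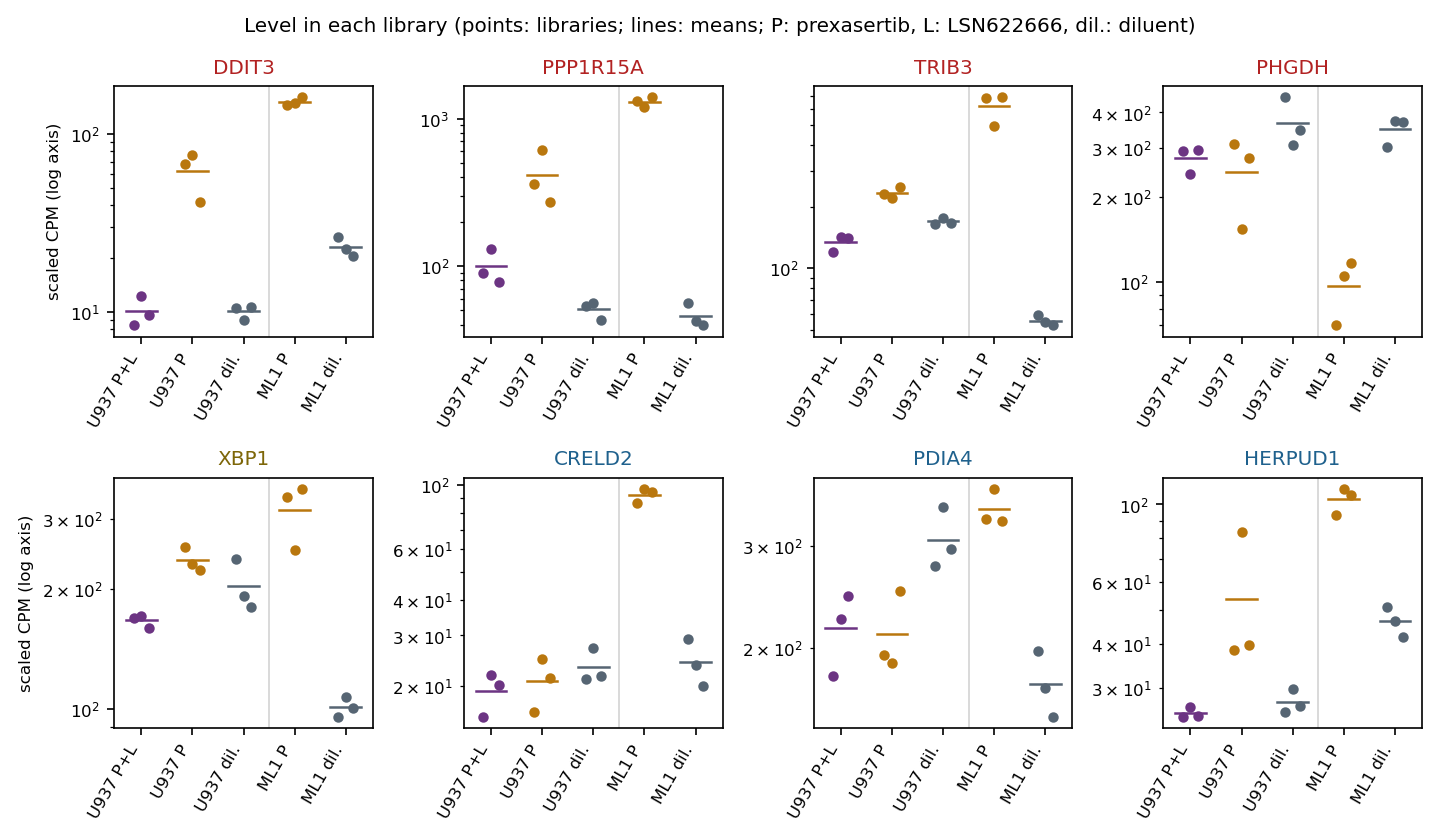
CPM of 8 members in every library on log axes, with points for libraries and a line for each group mean; P is prexasertib, L LSN622666 and dil. diluent. DDIT3 and PPP1R15A stood higher with prexasertib than with diluent in both lines, CRELD2 and XBP1 with prexasertib and diluent overlapped in U937 and separated in ML1, and PHGDH fell in ML1.

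The amino acid and folate enzymes other than PSAT1 fell in ML1. PHGDH (chr1:119648411-119744226, plus strand), the first enzyme of serine synthesis, had 308, 154 and 276 CPM in U937 with prexasertib against 453, 306 and 347 with diluent. In ML1 it had 70.1, 105 and 116 CPM with prexasertib against 301, 374 and 369.7 with diluent. The ML1 groups lay far apart, while in U937 prexasertib replicate 2 was the lowest library and replicate 1 lay within the diluent range. In U937 PHGDH did not pass the test (-0.58 ± 0.22, adjusted p = 0.055), though it did with the replicate number as a block (-0.62, adjusted p = 0.0017), and in ML1 it fell (-1.84 ± 0.23, adjusted p = 3.3e-06). PSPH (chr7:56011051-56051604, minus strand), the last enzyme of that pathway, had 29.4, 22.4 and 33.1 CPM in U937 with prexasertib against 39.7, 37.3 and 37.9 with diluent, and 15.4, 20.8 and 22.95 CPM in ML1 with prexasertib against 36.04, 48.6 and 45.2 with diluent. Its libraries separated in both lines, with a log2 fold change of -0.44 ± 0.16, adjusted p = 0.051 in U937 (-0.45, adjusted p = 0.0057 with the block) and a fall in ML1 (-1.14 ± 0.17, adjusted p = 2e-05).

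ALDH1L2 had 1.07, 0.989 and 0.467 CPM in U937 with prexasertib against 0.586, 0.342 and 0.962 with diluent, and the groups overlapped (0.45 ± 0.33, adjusted p = 0.31). In ML1 it had 41.2, 42.00 and 50.1 CPM with prexasertib against 92.8, 82.9 and 114 with diluent and fell (-1.12 ± 0.23, adjusted p = 0.00065). The remaining enzymes that fell in ML1 without overlap were ASNS (-1.07 ± 0.23, adjusted p = 0.00079), the serine hydroxymethyltransferase SHMT2 (-0.90 ± 0.15, adjusted p = 9.1e-05) and the mitochondrial folate enzyme MTHFD2 (-0.52 ± 0.10, adjusted p = 0.0004). In U937 these 3 did not pass (-0.39 ± 0.23, adjusted p = 0.2, -0.37 ± 0.15, adjusted p = 0.072 and -0.11 ± 0.10, adjusted p = 0.41), and with the block ASNS (-0.41, adjusted p = 0.0089) and SHMT2 (-0.38, adjusted p = 0.016) were called lower. VLDLR, a lipoprotein receptor, fell in both lines (-0.47 ± 0.16, adjusted p = 0.036 in U937 and -0.92 ± 0.16, adjusted p = 0.00013 in ML1). PSAT1 fell in U937 (-0.70 ± 0.22, adjusted p = 0.025) and was not called at its very low level in ML1 (0.10 ± 0.40, adjusted p = 0.87).

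U937 prexasertib replicate 2 was the lowest library of its group for each of these genes but ALDH1L2. Without it, PSAT1 was at -0.46, adjusted p = 0.085 and VLDLR at -0.32, adjusted p = 0.15. Both U937 calls also ended without U937 diluent replicate 1 (0.067 for PSAT1 and 0.1 for VLDLR) or 3 (0.055 and 0.062). Of the MTHFD2 exon length 27.2% overlaps SLC4A5, which changed by -0.80 in ML1, and 7.9% of VLDLR overlaps VLDLR-AS1, so reads in those stretches cannot be assigned to a strand.

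The ER arm rose in ML1 and for the most part did not in U937. In U937, 2 of 13 members rose (15.4%) and 3 fell (23.1%), where 18.3% of all genes tested were called higher and 12.8% lower. The median log2 fold change was -0.19, and 2 members lay fully above and 3 fully below diluent, against 24% and 20% of all genes tested. With the replicate number as a block 6 fell, where 3682 of all 17243 genes tested were called lower. In ML1, 10 rose (76.9%) and none fell, where 25.3% of all genes tested were called higher and 23.5% lower. The median was 0.95, and all 3 prexasertib libraries lay above all 3 diluent libraries for 11 members, against 30% of all genes tested. The 9 folding genes alone gave none higher and 3 lower in U937, against 7 higher and none lower in ML1, beside the same shares of all genes tested.

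CRELD2 (chr22:49918167-49927540, plus strand) had the largest log2 fold change of the ER arm in ML1; of the other ER arm members with an ERSE, CALR was at 0.65 and CANX at 0.27, as given below. It had 16.3, 24.8 and 21.3 CPM in U937 with prexasertib against 21.2, 27.1 and 21.6 with diluent, and 86.7, 97.1 and 94.6 CPM in ML1 with prexasertib against 29.1, 23.6 and 19.98 with diluent. The U937 groups overlapped and the ML1 groups were well apart (-0.17 ± 0.17, adjusted p = 0.48 in U937 and 1.94 ± 0.18, adjusted p = 7.9e-08 in ML1). MANF (chr3:51385047-51389397, plus strand), a secreted ER stress protein, had 55.97, 72.3 and 68.8 CPM in U937 with prexasertib against 50.98, 66.3 and 57.1 with diluent, and 75.5, 84.1 and 92.1 CPM in ML1 with prexasertib against 39.3, 41.4 and 32.8 with diluent. It too did not separate in U937 (0.18 ± 0.17, adjusted p = 0.44) and rose in ML1 (1.15 ± 0.17, adjusted p = 2.2e-05).

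Protein disulfide isomerases, which form and rearrange the bonds between cysteines, did not all move alike. PDIA4 (chr7:149003062-149028641, minus strand) had 194, 188 and 251 CPM in U937 with prexasertib against 277, 351 and 297 with diluent, and 335, 378 and 332 CPM in ML1 with prexasertib against 197, 170.4 and 152 with diluent. Neither pair overlapped: PDIA4 fell in U937 (-0.55 ± 0.15, adjusted p = 0.011) and rose in ML1 (1.01 ± 0.15, adjusted p = 2.2e-05). PDIA3 (chr15:43746392-43773279, plus strand) had 392, 457 and 527 CPM in U937 with prexasertib against 519, 657 and 603 with diluent, and 572, 673 and 557 CPM in ML1 with prexasertib against 300.3, 294 and 274 with diluent. In U937 replicate 3 of prexasertib lay within the diluent range (-0.37 ± 0.14, adjusted p = 0.06; -0.37, adjusted p = 0.0063 with the block), and in ML1 PDIA3 rose (1.05 ± 0.15, adjusted p = 1.1e-05). PDIA6 fell in U937 (-0.67 ± 0.14, adjusted p = 0.002) without overlap and was not called in ML1 (0.15 ± 0.14, adjusted p = 0.38). Overlapping genes on the other strand cover 18.9% of PDIA3 and 25.2% of PDIA6 exon length, all with group means below 5 CPM.

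Of the other folding genes, HYOU1, the chaperone with 2 ERSE-II matches, was at -0.39 ± 0.15, adjusted p = 0.0504 in U937 (-0.38, adjusted p = 0.012 with the block) and rose in ML1 (0.95 ± 0.15, adjusted p = 3.8e-05). CALR was at -0.32 ± 0.18, adjusted p = 0.17 in U937 (-0.32, adjusted p = 0.047 with the block) and rose in ML1 (0.65 ± 0.18, adjusted p = 0.0056). CANX was at -0.31 ± 0.11, adjusted p = 0.044 in U937 and at 0.27 ± 0.11, adjusted p = 0.058 in ML1 (0.27, adjusted p = 0.022 with the block). The U937 call of CANX ended without U937 prexasertib replicate 1 or 2, U937 diluent replicate 2, combination replicate 2, or replicate 2 or 3 of either ML1 group, with adjusted p from 0.053 to 0.1. SDF2L1, an ER chaperone cofactor, was at -0.14 ± 0.22, adjusted p = 0.66 in U937 and passed in ML1 (0.56 ± 0.22, adjusted p = 0.044). Its ML1 call ended without ML1 prexasertib replicate 2 (0.095) or 3 (0.17), ML1 diluent replicate 2 (0.089) or 3 (0.19), U937 diluent replicate 3 (0.052) or combination replicate 2 (0.052).

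The genes of the ER arm that rose in U937 were both of the degradation group. HERPUD1 (chr16:56932048-56944863, plus strand), which carries both ERSE-II and CARE letters, had 38.4, 83.2 and 39.7 CPM in U937 with prexasertib against 25.6, 29.7 and 26.6 with diluent, and 93.1, 111 and 106 CPM in ML1 with prexasertib against 51.2, 46.5 and 41.98 with diluent. All treated libraries were above diluent, and U937 prexasertib replicate 2 was far above the others of its group. HERPUD1 rose in U937 (0.98 ± 0.21, adjusted p = 0.0028; 0.49, adjusted p = 0.01 without that library) and in ML1 (1.15 ± 0.21, adjusted p = 0.00021). EDEM1 (chr3:5187646-5219957, plus strand), which directs misfolded glycoproteins to degradation, had 194, 173 and 167 CPM in U937 with prexasertib against 153, 132 and 145 with diluent, and 411, 364 and 357 CPM in ML1 with prexasertib against 185, 195 and 199 with diluent. It rose in U937 (0.31 ± 0.11, adjusted p = 0.041) and, by more, in ML1 (0.97 ± 0.11, adjusted p = 1.4e-06). The U937 call of EDEM1 ended when any 1 library was left out other than U937 prexasertib replicate 3, combination replicate 1 or 3, or ML1 prexasertib replicate 1 or 2 (adjusted p up to 0.2). SYVN1, the ubiquitin ligase of the degradation complex, was at 0.14 ± 0.11, adjusted p = 0.34 in U937 and rose in ML1 (0.50 ± 0.11, adjusted p = 0.00095). Its adaptor SEL1L was not called in either line (-0.19 ± 0.11, adjusted p = 0.22 in U937 and 0.28 ± 0.11, adjusted p = 0.055 in ML1, where the block gave 0.27, adjusted p = 0.013). Of the SYVN1 exon length, 10.1% overlaps FAU on the same strand, MRPL49 on the other strand and MIR6751. FAU had 241 CPM in U937 with prexasertib against 285 with diluent and 251 against 273 in ML1. With prexasertib neither FAU nor MRPL49 was called in either line.

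**Figure D4:**
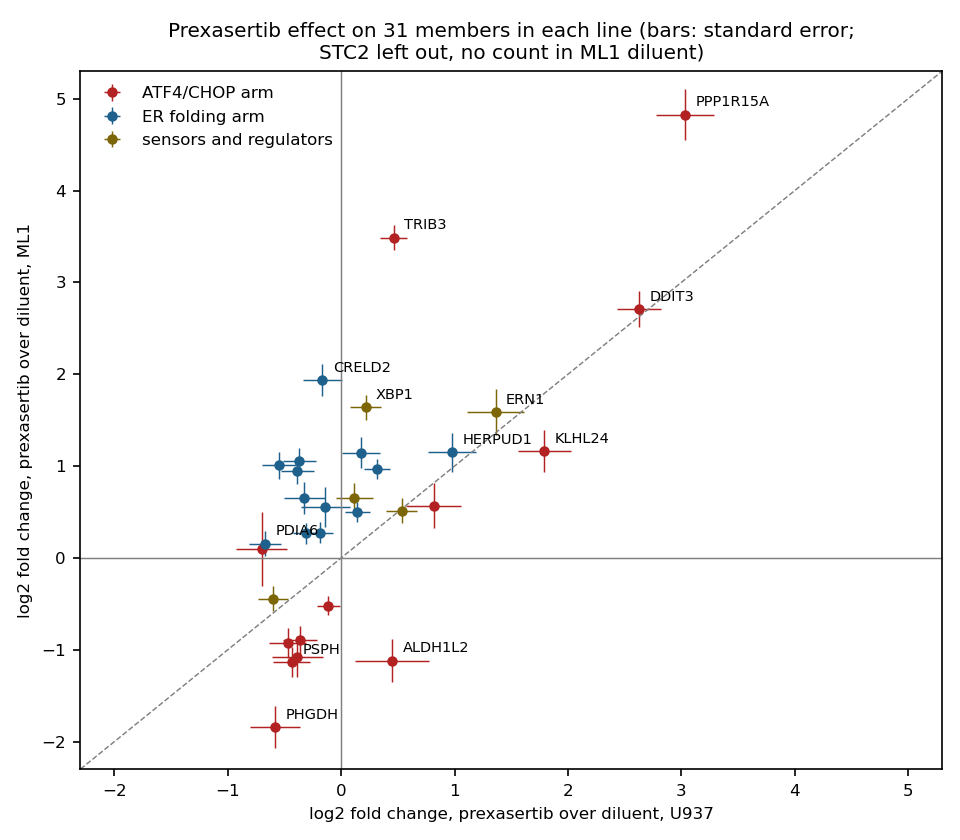
Log2 fold change, prexasertib over diluent, of 31 members in U937 (horizontal axis) and ML1 (vertical axis), with standard errors; the dashed line marks equal change. DDIT3 lies near the line, at 2.63 in U937 and 2.71 in ML1, as does HERPUD1, at 0.98 in U937 and 1.15 in ML1, while CRELD2, XBP1 and TRIB3 lie well above it. The U937 value of HERPUD1 is smaller without U937 prexasertib replicate 2, as given in the text.

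Of the sensors, IRE1, encoded by ERN1 (chr17:64039142-64130819, minus strand), rose in both lines. ERN1 had 21.5, 41.7 and 19.9 CPM in U937 with prexasertib against 9.94, 11.1 and 11.3 with diluent, and 65.04, 39.2 and 42.9 CPM in ML1 with prexasertib against 20.03, 14.9 and 13.96 with diluent. The groups did not overlap, with U937 prexasertib replicate 2 and ML1 prexasertib replicate 1 the highest of their groups (1.36 ± 0.25, adjusted p = 0.00085 in U937 and 1.59 ± 0.25, adjusted p = 4.1e-05 in ML1). XBP1 (chr22:28794555-28800597, minus strand), its splicing substrate and a transcription factor gene, had 254, 232 and 223 CPM in U937 with prexasertib against 238, 193 and 180.3 with diluent, and 341, 250.04 and 357 CPM in ML1 with prexasertib against 95.6, 107 and 101 with diluent. The U937 groups overlapped through diluent replicate 1 (0.21 ± 0.13, adjusted p = 0.23), whereas XBP1 rose in ML1 (1.64 ± 0.14, adjusted p = 2.7e-08). EIF2AK3 (chr2:88556741-88627576, minus strand), the ER-resident eIF2α kinase PERK, had 8.51, 10.2 and 7.92 CPM in U937 with prexasertib against 8.01, 7.25 and 9.28 with diluent, and 27.5, 19.8 and 21.8 CPM in ML1 with prexasertib against 12.9, 15.3 and 15.7 with diluent. It did not pass in U937 (0.12 ± 0.16, adjusted p = 0.62) and rose in ML1 (0.65 ± 0.16, adjusted p = 0.0027). The amino acid sensor GCN2, EIF2AK4, was the sensor that fell in both (-0.60 ± 0.13, adjusted p = 0.003 in U937 and -0.44 ± 0.13, adjusted p = 0.01 in ML1).

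The difference of the prexasertib effect, U937 minus ML1, was then tested for each member in the same model. In the ER arm 10 of 13 members had a smaller log2 fold change in U937 and none a larger one, where 24.7% of all genes tested were called, 12.3% lower and 12.4% higher. Those 10 included 8 of the 9 folding genes, from -0.58 ± 0.16 for CANX (adjusted p = 0.012) to -2.10 ± 0.24 for CRELD2 (adjusted p = 5.6e-06), with PDIA4 at -1.56 ± 0.21, adjusted p = 2.7e-05, PDIA3 at -1.42 ± 0.21, adjusted p = 5.5e-05, HYOU1 at -1.34 ± 0.21, adjusted p = 0.00011 and MANF at -0.97 ± 0.24, adjusted p = 0.0056. XBP1 differed likewise (-1.43 ± 0.19, adjusted p = 2.4e-05), and ERN1, HERPUD1, EIF2AK3 and PPP1R15B did not pass (-0.23 ± 0.35, adjusted p = 0.69, -0.17 ± 0.30, adjusted p = 0.73, -0.54 ± 0.23, adjusted p = 0.1 and 0.02 ± 0.19, adjusted p = 0.97). Without U937 prexasertib replicate 2, HERPUD1 was at -0.67, adjusted p = 0.0049 and EIF2AK3 at -0.68, adjusted p = 0.041.

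In the ATF4/CHOP arm 3 of 14 members differed downwards and 4 upwards, where 12.3% of all genes tested were called lower and 12.4% higher. The smaller rises in U937 were those of TRIB3 (-3.03 ± 0.18, adjusted p = 2.8e-09), PPP1R15A (-1.80 ± 0.34, adjusted p = 0.00076) and STC2 (adjusted p = 0.011, fitted against no count in ML1 diluent). The members that fell in ML1 and had a higher log2 fold change in U937 were PHGDH (1.26 ± 0.32, adjusted p = 0.0067), ALDH1L2 (1.57 ± 0.40, adjusted p = 0.0076), PSPH (0.70 ± 0.23, adjusted p = 0.035) and MTHFD2 (0.41 ± 0.15, adjusted p = 0.048). Of these, PHGDH and PSPH were called lower in U937 with the replicate block. DDIT3, KLHL24 (0.63 ± 0.32, adjusted p = 0.17) and CHAC1 (0.25 ± 0.35, adjusted p = 0.66) did not pass. The replicate block added ASNS (0.65, adjusted p = 0.0052), SHMT2 (0.53, adjusted p = 0.022), VLDLR (0.44, adjusted p = 0.043), SDF2L1 (-0.71, adjusted p = 0.032) and SYVN1 (-0.36, adjusted p = 0.041). Leaving out U937 prexasertib replicate 2 likewise brought in ASNS (0.91, adjusted p = 0.018), SHMT2 (0.65, adjusted p = 0.019), VLDLR (0.60, adjusted p = 0.034) and SYVN1 (-0.45, adjusted p = 0.042). Of the 18 calls, 15 held in each alternative at the same threshold that tested the gene, and STC2 was not tested under the stricter filter. The exceptions were PSPH, MTHFD2 and SEL1L (-0.46 ± 0.16, adjusted p = 0.044). PSPH lost its call without U937 prexasertib replicate 1 or 3, any U937 diluent library, ML1 prexasertib replicate 1 or ML1 diluent replicate 2 or 3 (adjusted p up to 0.098), and MTHFD2 without any library other than replicate 2 of either prexasertib group (up to 0.15). SEL1L lost it without U937 prexasertib replicate 1 or 3, U937 diluent replicate 1 or 2, combination replicate 2 or 3, ML1 prexasertib replicate 1 or 3 or ML1 diluent replicate 2 or 3 (up to 0.12).

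The next comparison asked what LSN622666 changed when it was added to prexasertib in U937. The prexasertib libraries are shared with the comparison against diluent above, so a library that is high there lowers this fold change as well. Of the 32 members, 11 fell and 1 rose, where 29% of all genes tested were called, 17.1% lower and 11.9% higher. The ATF4/CHOP arm had 6 lower and 1 higher of 14, the ER arm 2 lower of 13, and the sensors and regulators 3 lower of 5. All 12 calls held in each alternative at the same threshold that tested the gene. STC2 was not tested under the stricter filter.

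The 6 members of the ATF4/CHOP arm that fell were DDIT3, PPP1R15A, TRIB3, STC2, KLHL24 and CHAC1. DDIT3 had 8.42, 12.3 and 9.67 CPM with the combination, against 68.4, 76.4 and 41.7 with prexasertib, and fell by 2.62 (-2.62 ± 0.19, adjusted p = 9e-07). PPP1R15A had 90.1, 129 and 78.3 CPM with the combination against 362, 617 and 270.1 with prexasertib (-2.07 ± 0.25, adjusted p = 2.9e-05). TRIB3 had 120.4, 142 and 141 CPM with the combination against 230.5, 221 and 248 with prexasertib (-0.80 ± 0.12, adjusted p = 0.00022). Each combination library lay below each prexasertib library for these 3 genes. STC2 had 0.732, 0.369 and 0.425 CPM with the combination, against 2.07, 2.56 and 2.12 with prexasertib (-2.15 ± 0.40, adjusted p = 0.0011). KLHL24 had 32.9, 23.6 and 23.1 CPM with the combination against 72.9, 97.98 and 55.4 with prexasertib (-1.51 ± 0.23, adjusted p = 0.00019), and CHAC1 had 3.51, 2.78 and 3.43 with the combination against 8.12, 6.77 and 7.78 with prexasertib (-1.22 ± 0.24, adjusted p = 0.0015). These groups did not overlap either, and 14 members in all lay fully below prexasertib and 2 fully above, against 23.4% and 18.8% of all genes tested.

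The member that rose was PSPH, which had 41.9, 45.6 and 51.7 CPM with the combination, against 29.4, 22.4 and 33.1 with prexasertib, and was higher without overlap (0.71 ± 0.16, adjusted p = 0.0039). PHGDH had 293, 241 and 295 CPM with the combination against 308, 154 and 276 with prexasertib, and ALDH1L2 had 1.45, 1.24 and 0.924 with the combination against 1.07, 0.989 and 0.467 with prexasertib; both overlapped (0.17 ± 0.22, adjusted p = 0.61 and 0.51 ± 0.29, adjusted p = 0.21). With the replicate number as a block, ASNS was called higher (0.37, adjusted p = 0.018) and MTHFD2 lower (-0.26, adjusted p = 0.032).

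In the ER arm the 2 genes that fell with the combination were HERPUD1 and EDEM1, both of the degradation branch. HERPUD1 had 24.8, 26.5 and 25.02 CPM with the combination, against 38.4, 83.2 and 39.7 with prexasertib (-1.08 ± 0.21, adjusted p = 0.0013; -0.61, adjusted p = 0.002 without prexasertib replicate 2). EDEM1 had 127, 107 and 102 CPM with the combination against 194, 173 and 167 with prexasertib (-0.67 ± 0.11, adjusted p = 0.00037). Each combination library was below every prexasertib library for both genes. No folding gene of the arm was called, while some of the further folding genes described below were. CRELD2 had 15.6, 21.9 and 20.2 CPM with the combination against 16.3, 24.8 and 21.3 with prexasertib, and PDIA3 had 381, 495 and 532 CPM with the combination against 392, 457 and 527 with prexasertib. PDIA4 had 178, 224 and 246 CPM with the combination against 194, 188 and 251 with prexasertib, and MANF had 37.6, 62.2 and 58.2 CPM with the combination against 55.97, 72.3 and 68.8 with prexasertib. For these 4 genes the groups overlapped, with intervals of the log2 fold change of -0.47 to 0.25, -0.27 to 0.34, -0.28 to 0.34 and -0.67 to 0.03 (95%). MANF was called lower with the block (-0.34, adjusted p = 0.028), and PDIA6 higher without U937 prexasertib replicate 3 (0.44, adjusted p = 0.022).

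Among the sensors and regulators, ERN1 had 14.5, 12.05 and 11.7 CPM with the combination, against 21.5, 41.7 and 19.9 with prexasertib (-1.12 ± 0.25, adjusted p = 0.0029; -0.69, adjusted p = 0.024 without prexasertib replicate 2). XBP1 had 169, 172 and 159.7 CPM with the combination against 254, 232 and 223 with prexasertib (-0.50 ± 0.13, adjusted p = 0.0097), and PPP1R15B had 96.9, 106 and 94.3 with the combination against 164, 166 and 131 with prexasertib (-0.63 ± 0.13, adjusted p = 0.0023). All 3 fell without overlap. EIF2AK3 had 7.38, 6.32 and 7.22 CPM with the combination against 8.51, 10.2 and 7.92 with prexasertib, which separated but did not pass the test (-0.35 ± 0.16, adjusted p = 0.12), and EIF2AK4 was at 0.24 ± 0.13, adjusted p = 0.17.

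Against diluent, the combination left few members called: 1 higher and 5 lower, where 11% of all genes tested were called, 6.88% higher and 4.11% lower. PPP1R15A was higher, with 90.1, 129 and 78.3 CPM with the combination against 53.6, 55.9 and 43.1 with diluent (0.96 ± 0.24, adjusted p = 0.018). DDIT3 had 8.42, 12.3 and 9.67 CPM with the combination against 10.5, 8.98 and 10.7 with diluent and overlapped (0.01 ± 0.19, adjusted p = 0.98, 95% interval -0.38 to 0.40). PSAT1 (-0.74 ± 0.22, adjusted p = 0.042), MTHFD2 (-0.38 ± 0.10, adjusted p = 0.026), CANX (-0.42 ± 0.11, adjusted p = 0.026), PDIA4 (-0.51 ± 0.15, adjusted p = 0.035) and EDEM1 (-0.36 ± 0.11, adjusted p = 0.047) were lower. None of these 6 calls held in each alternative, and each ended without U937 diluent replicate 2. PPP1R15A lost its call without diluent replicate 2 (0.053) or 3 (0.086) and without combination replicate 1 (0.051) or 2 (0.076), and all 5 lower calls ended with upper-quartile scaling, with adjusted p from 0.061 for CANX to 0.2 for EDEM1. That scaling moved the median of all genes tested to 0.106 and their calls to 1528 higher and 236 lower, against 1186 higher and 709 lower with TMM. With the replicate number as a block, ALDH1L2 (0.97, adjusted p = 0.026) and SYVN1 (0.31, adjusted p = 0.021) were also called higher, though whether the numbers mark pairs was not settled. The block also called TRIB3, PHGDH, SHMT2, VLDLR, PDIA3, PDIA6, SEL1L and EIF2AK4 lower, from -0.32 for SEL1L to -0.50 for VLDLR.

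**Figure D5:**
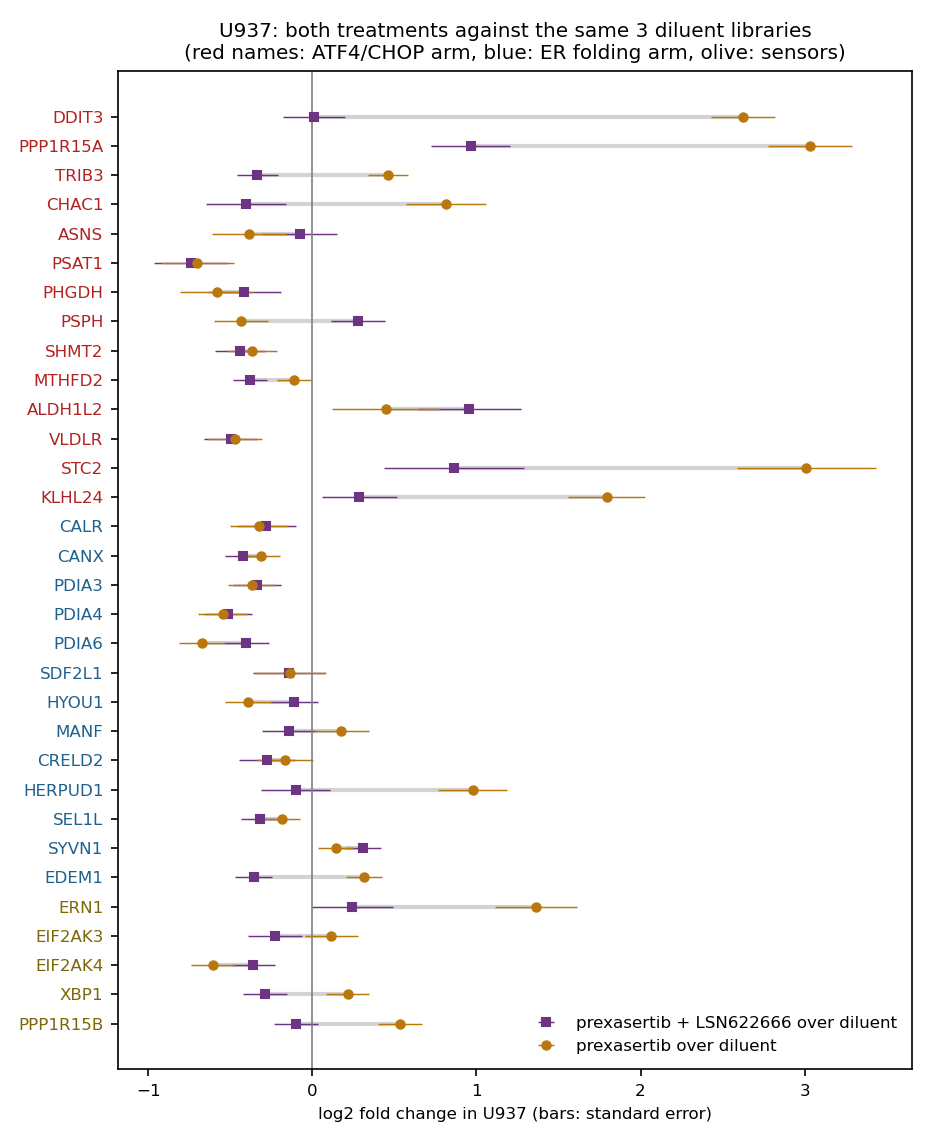
Log2 fold change over the same 3 U937 diluent libraries for each member with prexasertib plus LSN622666 (purple squares) and with prexasertib (orange circles), with standard errors. DDIT3 lies at 0.01 with the combination and 2.63 with prexasertib, while the folding genes CALR to CRELD2 lie at or below 0.18 under both treatments.

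A further 73 genes of the same pathways, listed by role, were read in the same fits. Of 22 other ATF4-regulated genes, 11 rose and 2 fell in U937 with prexasertib, where 18.3% of all genes tested were called higher and 12.8% lower. In ML1 13 rose and 6 fell, where 25.3% were called higher and 23.5% lower. Rising in both lines were CEBPB, a transcription factor that pairs with ATF4 (0.76 ± 0.13, adjusted p = 0.00061 in U937 and 2.76 ± 0.14, adjusted p = 7e-11 in ML1), and VEGFA, the vascular growth factor (0.46 ± 0.10, adjusted p = 0.0023 in U937 and 2.14 ± 0.10, adjusted p = 3.2e-11 in ML1). So did GDF15, a stress cytokine (4.81 ± 0.41, adjusted p = 1.1e-06 in U937, 5.51 without diluent replicate 1, and 7.29 ± 0.39, adjusted p = 1.2e-10 in ML1), and GADD45A, a stress and cell cycle regulator (1.67 ± 0.32, adjusted p = 0.0017 in U937 and 5.47 ± 0.37, adjusted p = 8.5e-09 in ML1). GADD45A had 12.04, 35.1 and 11.7 CPM in U937 with prexasertib against 6.71, 6.19 and 5.56 with diluent, again highest in prexasertib replicate 2, without which the change was 0.92, adjusted p = 0.00077. ATF4 itself, named after its values were seen, did not pass the test in either line (0.17 ± 0.12, adjusted p = 0.3 in U937 and 0.30 ± 0.12, adjusted p = 0.0505 in ML1, where the block gave 0.30, adjusted p = 0.036). The 6 that fell in ML1 were the amino acid transporters SLC7A5 and SLC7A1, the enzymes GPT2 and ALDH18A1, the translation inhibitor EIF4EBP1 and the transcription factor gene JDP2, also named after their values were seen. With the combination against prexasertib, 12 of these 22 genes fell and 1 rose, where 17.1% of all genes tested were called lower and 11.9% higher. Those that fell included CEBPB (-0.86 ± 0.13, adjusted p = 0.00022), VEGFA (-0.84 ± 0.10, adjusted p = 2.1e-05), GDF15 (-3.10 ± 0.34, adjusted p = 1.4e-05), GADD45A (-1.56 ± 0.32, adjusted p = 0.0022; -0.83, adjusted p = 0.0015 without prexasertib replicate 2) and ATF4 (-0.48 ± 0.12, adjusted p = 0.0068).

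Of the 22 other folding, redox and export genes, 1 rose and 14 fell in U937 (median log2 fold change -0.36), where 18.3% of all genes tested were called higher and 12.8% lower. In ML1 12 rose and 4 fell (median 0.40), where 25.3% were called higher and 23.5% lower. HSPA5, the ER Hsp70 chaperone BiP and a classic marker of the response, had 453, 749 and 563 CPM in U937 with prexasertib against 445, 707 and 534 with diluent, and the groups overlapped (0.07 ± 0.22, adjusted p = 0.84). In ML1 HSPA5 had 1254, 1043 and 1092 CPM with prexasertib against 397, 311 and 259.8 with diluent and rose (1.81 ± 0.22, adjusted p = 3e-06). HSP90B1, the ER Hsp90 (-0.21 ± 0.14, adjusted p = 0.27 in U937 and 1.403 ± 0.14, adjusted p = 3.1e-07 in ML1), and ERP44, a retention factor of the early secretory pathway (-0.22 ± 0.10, adjusted p = 0.11 in U937 and 0.90 ± 0.10, adjusted p = 9.5e-07 in ML1), also rose in ML1 and were not called in U937, where the block called ERP44 lower (-0.22, adjusted p = 0.047). DNAJB9, a cochaperone of BiP, was the 1 that rose in U937 (0.87 ± 0.19, adjusted p = 0.0033; 1.31 ± 0.20, adjusted p = 2.5e-05 in ML1). For the difference between the lines, 12 of the 22 had a smaller log2 fold change in U937 and none a larger one by the test. Of all genes tested, 12.3% were called lower and 12.4% higher there. With the combination against prexasertib, 5 of these 22 genes rose and 3 fell. Of all genes tested, 11.9% were called higher and 17.1% lower in that comparison. DNAJB9 was among those that fell (-0.96 ± 0.19, adjusted p = 0.0016).

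Of 12 other degradation genes, none rose and 3 fell in U937, where 18.3% of all genes tested were called higher and 12.8% lower, and 6 rose and 2 fell in ML1, where 25.3% were called higher and 23.5% lower. OS9, a lectin of the degradation complex (-0.27 ± 0.11, adjusted p = 0.066 in U937 and 0.75 ± 0.11, adjusted p = 2e-05 in ML1), and NPLOC4, a cofactor of the VCP segregase (-0.03 ± 0.12, adjusted p = 0.86 in U937 and 0.51 ± 0.12, adjusted p = 0.0016 in ML1), rose in ML1. With the block OS9 was called lower in U937 (-0.28, adjusted p = 0.027). DERL3, a channel component, fell in both lines (-0.96 ± 0.23, adjusted p = 0.0048 in U937 and -1.94 ± 0.23, adjusted p = 1.7e-06 in ML1). With the combination against prexasertib, DERL3 was the 1 gene of these 12 that rose (1.05 ± 0.23, adjusted p = 0.0025), and none fell. Of all genes tested, 11.9% were called higher and 17.1% lower in that comparison. Of 17 other sensors and eIF2 genes, 2 rose and 3 fell in U937, and 2 rose and 4 fell in ML1, beside the same shares of all genes tested (18.3% and 12.8% in U937, 25.3% and 23.5% in ML1). EIF2AK2 rose in ML1 (-0.06 ± 0.19, adjusted p = 0.83 in U937 and 2.59 ± 0.20, adjusted p = 1.1e-08 in ML1) and EIF2AK1 fell in both (-0.52 ± 0.11, adjusted p = 0.002 in U937 and -0.72 ± 0.11, adjusted p = 2.3e-05 in ML1). ATF6 rose in U937 (0.84 ± 0.14, adjusted p = 0.00049 in U937 and 0.22 ± 0.14, adjusted p = 0.21 in ML1) and fell with the combination against prexasertib (-0.88 ± 0.14, adjusted p = 0.00034). WFS1, an ER membrane protein, had 130 counts over the 3 U937 prexasertib libraries, 104 of them in replicate 2, and none with diluent.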

How the data were processed

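Per the labels' protocols, RNA came from an RNeasy Mini kit, and libraries came from the TruSeq RNA Library Prep Kit v2. The authors deposited raw counts per gene symbol, with no normalization, in 1 table of 15 libraries, and no column was left unused. TopHat2 2.0.14, Bowtie2 2.2.6, Subread, featureCounts 1.4.6 and the build hg38 are named in the submitters' processing notes; of the annotation, the strand setting and the handling of read pairs nothing is stated there. The series' design text names transcription factors of TNFα as its subject. Whether replicates were separate cultures is not stated, so p-values measure only the spread between these samples, which may be technical.

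Genes were kept by edgeR's filterByExpr (edgeR 4.0.16, R 4.3.3), scaled by TMM and fitted with the robust quasi-likelihood test over all 15 libraries with 1 mean per group (10 residual degrees of freedom; the biological coefficient of variation had a median of 0.163). Two-sided p-values were adjusted by the Benjamini-Hochberg method over all 17243 genes of a comparison, and a call is an adjusted p under 0.05. A fold against a group with no count is set against a floor of 3 counts over the group, and the Poisson limit given with it covers counting error only. The fits were tested on simulated data. Gene coordinates and overlaps are those of the GENCODE v29 annotation of GRCh38, which may not be the one the authors counted on.

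The members and lists were chosen with earlier results of these data known. Per-library values are given for the called members with the largest log2 fold changes in the prexasertib comparisons (8 of the ATF4/CHOP arm and 6 of the ER arm), for ERN1, EIF2AK3, XBP1, PPP1R15A and PPP1R15B, and for genes a result turned on. Of the other pathway genes up to 4 of each list with the smallest p are named, other than 1 gene that is not reported here.

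Deviations from the group means were positively correlated between same-numbered libraries over all genes tested. The correlations were 0.495, 0.22 and 0.113 between U937 prexasertib and diluent and 0.29, 0.238 and 0.115 in ML1. They were 0.557, 0.46 and 0.564 between the combination and prexasertib. Between the combination and diluent these deviations correlated at 0.535, 0.527 and 0.0818 over all genes tested and at 0.549, 0.662 and 0.150 over the 10000 most abundant genes. Differently numbered libraries were not compared. The deviations are centred on each group's mean, so that comparison would on average repeat the same information with the opposite sign. With 3 libraries per group, the check did not settle whether the numbers mark pairs in any of these comparisons. The main calls ignore any pairing, and calls that changed with the replicate block are given beside them. Over all genes tested in U937 with prexasertib, the block gave 3937 higher and 3682 lower, against 3160 and 2209 without it. Alternatives were DESeq2 size factors, upper-quartile factors, the DESeq2 1.42.0 Wald test, no low-count filter, a filter of at least 5 CPM in 3 libraries, a replicate block within each line, fits to 1 line or to the diluent groups, a threshold of 0.01 and leaving out each library.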

Additional observations from a re-analysis of the deposited data

Results flagged for a closer look

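For 18 members the effect of prexasertib, as a log2 fold change over diluent, differed between the lines by the test of the difference itself, U937 minus ML1. In the ER arm the differences were -2.10 for CRELD2, -1.56 for PDIA4, -1.42 for PDIA3, -1.34 for HYOU1, -0.98 for CALR, -0.97 for MANF, -0.83 for PDIA6, -0.65 for EDEM1, -0.58 for CANX and -0.46 for SEL1L, each a lower log2 fold change in U937. XBP1 differed by -1.43. In the ATF4/CHOP arm TRIB3 differed by -3.03 and PPP1R15A by -1.80. STC2 gave a fitted difference of -4.64, which rests on a group with no count and is not a size. The members with the higher log2 fold change in U937 were ALDH1L2 (1.57), PHGDH (1.26), PSPH (0.70) and MTHFD2 (0.41), all of which fell in ML1.

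The summed levels of the myeloid markers and of the markers of other cell types were higher with prexasertib than with diluent in ML1 as well, as given with the library depths above, and their part in these differences was not tested.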

How the results depend on the processing

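No member's called change reversed under any alternative. The calls that were made under each alternative that tested the gene, at the threshold of 0.05, numbered 12 of 12 for the combination against prexasertib, 26 of 27 for ML1 with prexasertib, 15 of 18 for the difference between the lines, 21 of 25 for the diluent lines, 10 of 16 for U937 with prexasertib and 0 of 6 for the combination against diluent. STC2 is among these calls in every comparison but the last, and it was not tested under the stricter filter. The arm counts given in the report that are not listed here stayed within 1.5 times their value.

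For U937 with prexasertib, the ATF4/CHOP arm had 2 members lower, against 4 with DESeq2 size factors, 1 with upper-quartile factors, 5 with the DESeq2 test, 1 with the stricter filter and 0 at the threshold of 0.01, and 0 to 5 with 1 library left out. The ER arm had 2 higher, against 1 with no filter, 1 in the fit to U937 alone and 1 at 0.01, and 1 to 2 with 1 library left out. It had 3 lower, against 5 with DESeq2 size factors, 5 with the DESeq2 test and 1 at 0.01, and 2 to 5 with 1 library left out.

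For the combination against diluent, the ATF4/CHOP arm had 1 higher, against 2 with upper-quartile factors, 2 with the DESeq2 test and 0 at 0.01, and 0 to 2 with 1 library left out. It had 2 lower, against 0 with upper-quartile factors, 5 with the DESeq2 test, 1 with no filter, 1 with the stricter filter, 0 in the fit to U937 alone and 0 at 0.01, and 0 to 4 with 1 library left out. The ER arm had 0 higher, against 1 with upper-quartile factors, 1 with the DESeq2 test and 1 with the stricter filter, and 3 lower, against 0 with upper-quartile factors, 5 with the DESeq2 test, 0 with the stricter filter, 0 in the fit to U937 alone and 0 at 0.01, and 0 to 5 with 1 library left out. For the combination against prexasertib, the ER arm had 0 higher, and 0 to 1 with 1 library left out. For the difference between the lines, the ATF4/CHOP arm had 4 higher, against 2 at 0.01, and 2 to 7 with 1 library left out (7 without U937 prexasertib replicate 2).

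With the replicate block, U937 with prexasertib gave 6 lower in the ATF4/CHOP arm and 6 lower in the ER arm, and the combination against prexasertib gave 2 higher in the ATF4/CHOP arm. The combination against diluent gave 2 higher and 6 lower in the ATF4/CHOP arm and 1 higher and 6 lower in the ER arm, and the difference between the lines gave 7 higher in the ATF4/CHOP arm. Members whose call the block changed are named in the report with those comparisons. For the remaining changes the cause was not tested, other than a threshold of 0.01 admitting fewer genes by construction. STC2, ALDH1L2 in U937 and PSAT1 in ML1 had so few counts that smaller changes would not be detectable at this depth.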
